A study of Homo sapiens with 12 samples.

Results

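The aminoacyl-tRNA synthetases were examined in RNAseq of C4-2 cells, a prostate cancer (PrCa) epithelial line, treated with PBKi or with DMSO. The set was taken by name, as protein-coding genes whose current symbol ends in ARS after a single letter, with or without a closing digit, plus EPRS1, FARSA and FARSB. This rule found 38 of the 54127 genes counted, of which 19 encode cytosolic enzymes, 17 mitochondrial enzymes and 2 (GARS1 and KARS1) enzymes of both compartments. Compartment, and membership of the multi-synthetase complex, were assigned by hand from general knowledge. All 38 passed the filter on low counts, as did 14505 genes in total. The rule used no measured value.

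The samples were 6 libraries from cells given DMSO, the vehicle, and 6 from cells given PBKi, which blocks the catalytic activity of PDZ binding kinase (PBK), a kinase with a role in the cell cycle. The labels name the compound TOPK32 and give 1 µM, and the methods of the study give HI-TOPK-032 and 6 h. Both groups were grown in RPMI with 10% FBS, and the comparison rests on 1 cell line, 1 dose and 1 time point. The labels mention flow sorting without naming a gate. The labels do not say whether the replicates were separate cultures, and the p-values then measure only the spread between these libraries.

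A synthetase joins an amino acid to its tRNA, the step that fixes the meaning of each codon in protein synthesis. Mitochondria translate their own genome with a separate set of synthetases, which are encoded in the nucleus and imported. In the cytosol several synthetases are held together in the multi-synthetase complex, and the genes of many cytosolic enzymes are known targets of ATF4, the transcription factor of the amino acid and integrated stress responses.

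Depth ranged from 9663203 to 28029908 reads on genes per library, and the synthetases took 0.758% to 0.856% of these reads. The lowest count of any member in any library was 109 (RARS2) and the highest 20502. DMSO replicate 5 was the shallowest library, with 3 sequencing lanes where the others had 4. It also stood furthest from the other DMSO libraries on the second principal component of all genes, which held 9.76% of the variance and separated replicates 1 to 3 from replicates 4 to 6. PBKi replicates 3 and 6 had the most reads outside genes (9.30% and 8.83%, against 5.74% to 6.96% in the other 10 libraries), and reads from the mitochondrial genome were 0.47% to 1.20% of the DMSO libraries and 0.80% to 2.28% of the PBKi libraries. All 10 prostate epithelial markers passed the filter and none of 6 leukocyte markers did. Of the other lists, 1 of 3 basal, 2 of 5 fibroblast and 1 of 4 endothelial markers passed, with summed levels no higher than 1.73, 26.1 and 7.25 CPM (normalised counts scaled to the size of the library), and the leukocyte sum was at most 0.738 CPM. The summed level of the epithelial list was 5265 to 6328 CPM with DMSO but 2956 to 3837 CPM with PBKi. In it KLK3, KLK2, TMPRSS2, HOXB13 and KRT18 were downregulated, FOLH1 was upregulated and the other 4 were not called. The part of these differences in the synthetase results was not tested, and in bulk RNA fewer cells of a type and less RNA per cell cannot be told apart.

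PBKi changed a minority of the synthetase genes, each by a small amount, and downregulated more of them than it upregulated. Of the 38 genes, 2 were upregulated (WARS1 and SARS1, the tryptophanyl and seryl enzymes of the cytosol) and 11 were downregulated (edgeR, quasi-likelihood, Benjamini-Hochberg over all genes, threshold 0.05). These were 34.2% of the members, beside 41.7% of all genes tested. Upregulated genes were 5.26% of the members and 20.1% of all genes, and downregulated genes 28.9% of the members and 21.5% of all genes. Among the 8905 genes within the range of expression of the members, 18.7% were upregulated and 26.6% downregulated. The median log2 fold change was -0.03 over the members and -0.01 over all genes, with standard errors of 0.05 to 0.10 for the members.

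**Figure D1:**
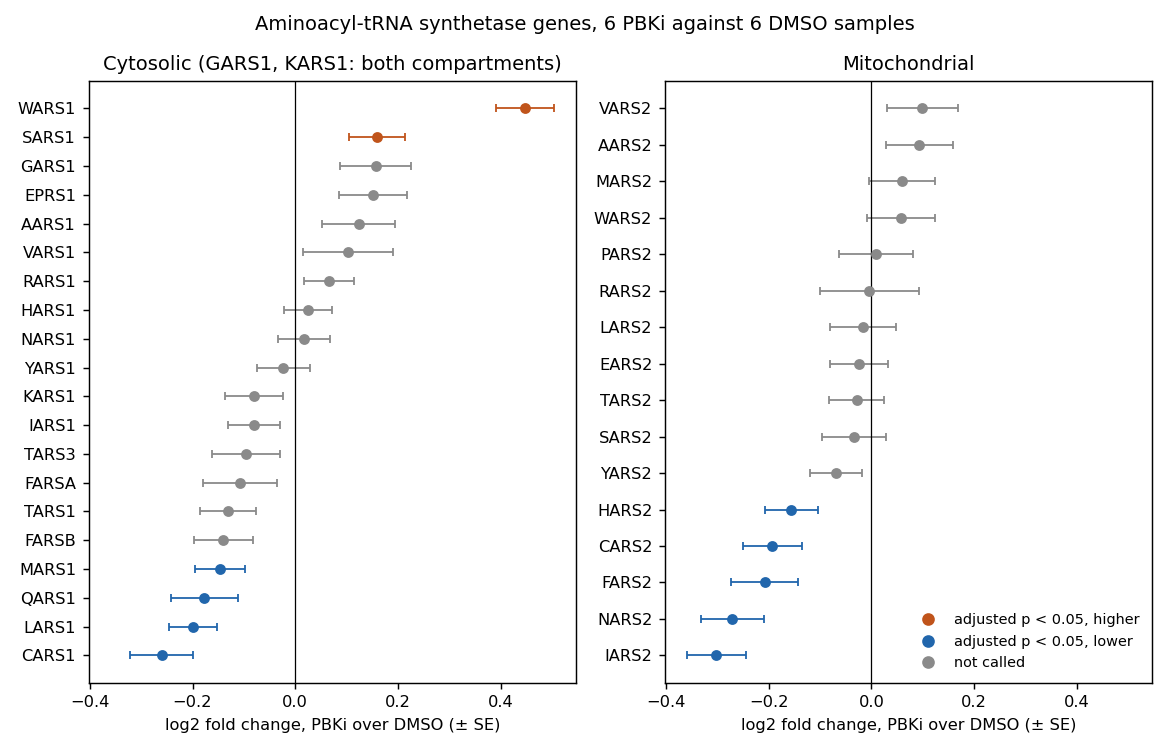
Log2 fold change of 36 synthetase genes in PBKi over DMSO (points) with its standard error (bars), with cytosolic enzymes and the enzymes of both compartments on the left and mitochondrial enzymes on the right. WARS1 stood apart at 0.45, and no mitochondrial enzyme was called higher.

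WARS1, the tryptophanyl-tRNA synthetase of the cytosol and a gene known to be induced by interferon gamma, showed the largest change of the set. It lies on the minus strand at chr14:100800127-100843142 of GRCh37. Its level was 144.8 CPM at the lowest, 152.7 at the median and 170.5 at the highest in DMSO, and 191.7, 215.2 and 225.9 CPM in PBKi. Every PBKi library lay above every DMSO library. The log2 fold change was 0.45 (95% interval 0.34 to 0.56, n = 6 per group, adjusted p = 8e-06), a fold of 1.36, and the two-sided exact permutation test on log2 CPM gave p = 0.002165, the smallest that the 924 splits allow. It was 0.58 in replicates 1 to 3 alone (adjusted p = 1.139e-06) and 0.33 in replicates 4 to 6 alone (adjusted p = 0.01069). WARS1 shares exon sequence with WDR25 on the other strand, which had 7.05 CPM in DMSO and 8.10 CPM in PBKi. The strand setting used in counting is not given in the sources used here. Reads classed as ambiguous were left out of the counts, and how far the shared stretch moves the WARS1 count was not tested.

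Motifs were searched on both strands in the 250 bases before each start listed by RefSeq (GRCh38.p14), which were available for 30 of the 38 genes, and each stretch shown was matched exactly to GRCh37. Before a start of WARS1, inside a UTR exon of an annotated transcript, lie a match to the interferon-stimulated response element and a match to the gamma-activated site (TTCNNNGAA). They are shown because WARS1 was the gene that moved most, with the matched bases in capitals.
WARS1, interferon-stimulated response element, chr14:100841720-100841749, minus strand: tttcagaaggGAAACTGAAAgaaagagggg
WARS1, gamma-activated site, chr14:100841807-100841836, minus strand: gctcaagtgtTTCTGAGAAtctgggtgatt
The first motif was found before 2 of the 30 members (EARS2 and WARS1, 6.67%) and before 3.71% of the 27305 genes with a promoter entry. The second was found before 4 of the 30 (PARS2, TARS1, WARS1 and WARS2, 13.3%) and before 8.09% of all. Of these genes, WARS1 alone was called changed.

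SARS1, which charges serine and, on its own tRNA, starts the route to selenocysteine, was the other upregulated gene (chr1:109756540-109780804, plus strand). It ran from 319.4 through 349.1 to 375.4 CPM in DMSO and from 353.2 through 396.1 to 411 CPM in PBKi, as lowest, median and highest. The groups overlapped. The log2 fold change was 0.16 (95% interval 0.05 to 0.27, adjusted p = 0.0258), and the exact permutation test gave p = 0.0152 (two-sided, n = 6 per group). The call was lost without DMSO replicate 1 (adjusted p = 0.0673), without DMSO replicate 3 (0.0514) and without PBKi replicate 2 (0.0598).

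CARS1 and LARS1, the cysteinyl and leucyl enzymes of the cytosol, were downregulated, and in both every PBKi library lay below every DMSO library. CARS1 (chr11:3022152-3078843, minus strand) had 155.8, 176.6 and 194.4 CPM in DMSO and 138.1, 147.4 and 152.8 CPM in PBKi, as lowest, median and highest. Its log2 fold change was -0.26 (95% interval -0.38 to -0.14, adjusted p = 0.00248). LARS1, which also serves as a leucine sensor for mTORC1, lies at chr5:145490129-145562259 on the minus strand. It had 332.4, 343.2 and 372.1 CPM in DMSO and 292.5, 301.4 and 312.2 CPM in PBKi. Its log2 fold change was -0.20 (95% interval -0.29 to -0.11, adjusted p = 0.00232), and for each gene the exact permutation test gave p = 0.002165 (two-sided, n = 6 per group).

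QARS1 and MARS1, for glutamine and methionine, were also downregulated, and their groups overlapped. QARS1 had 173, 181.2 and 218.5 CPM in DMSO and 152.2, 165.9 and 186.6 CPM in PBKi (log2 fold change -0.18, adjusted p = 0.0365). MARS1 had 366.6, 401.8 and 429.1 CPM in DMSO and 351.7, 353.8 and 374.4 CPM in PBKi (log2 fold change -0.15, adjusted p = 0.0241). Both calls depended on single libraries. QARS1 lost its call in 7 of the 12 fits that left out a library (DMSO 4 and 5, PBKi 1, 2, 3, 5 and 6), with adjusted p up to 0.102 without PBKi replicate 3, and MARS1 in 6 (DMSO 2 and 4, PBKi 1, 3, 5 and 6), up to 0.0837 without DMSO replicate 4. MARS1 shares exon sequence on the other strand with DDIT3, which had a log2 fold change of 1.02, and how far reads in the shared stretch move either count was not tested.

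**Figure D2:**
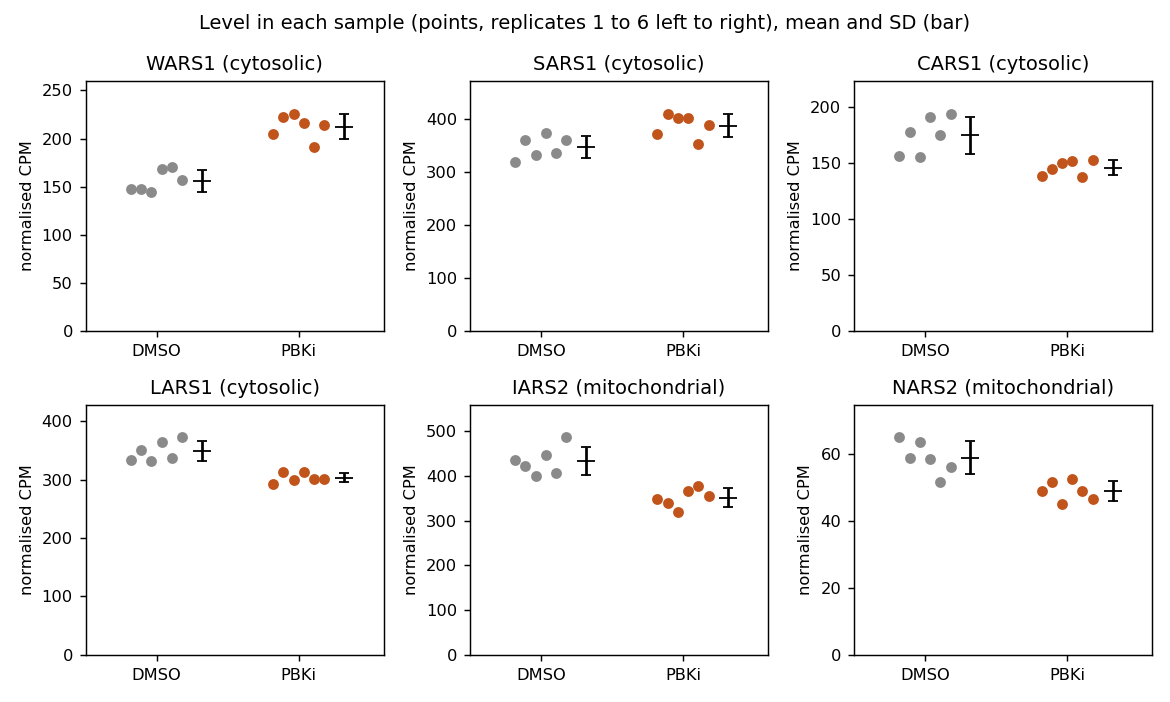
Normalised CPM in each of the 6 DMSO and 6 PBKi libraries (points, replicates 1 to 6 from left to right) with the mean and SD (bars) for 4 cytosolic and 2 mitochondrial synthetase genes. The groups did not overlap for WARS1, CARS1, LARS1 and IARS2 and overlapped for SARS1 and NARS2.

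The other 12 cytosolic enzymes were not called. Those with negative estimates were FARSB (-0.14), TARS1 (-0.13), FARSA (-0.11), TARS3 (-0.10), IARS1 (-0.08) and YARS1 (-0.02), as log2 fold changes. Those with positive estimates were EPRS1 (0.15), AARS1 (0.12), VARS1 (0.10), RARS1 (0.07), HARS1 (0.02) and NARS1 (0.02). EPRS1, the fused enzyme for glutamate and proline, had an adjusted p of 0.0764, which became 0.0255 without DMSO replicate 4, 0.0192 without DMSO replicate 6 and 0.0414 without PBKi replicate 1. FARSB and TARS1 were likewise called lower with 1 library left out, FARSB without DMSO replicate 6 (adjusted p = 0.0232) and TARS1 without DMSO replicate 3 (adjusted p = 0.0303). With the sets of replicates (1 to 3, and 4 to 6) as a covariate, EPRS1 (adjusted p = 0.0338) and AARS1 (0.0443) were called higher and FARSB (0.0246) and TARS1 (0.0319) lower, at nearly unmoved fold changes (0.15, 0.13, -0.14 and -0.13). VARS1, the valyl enzyme, turned on 1 library: DMSO replicate 5 had 395.8 CPM where the other DMSO libraries had 253.3 to 278.8 and PBKi libraries 289.5 to 315.9. Without it the log2 fold change of VARS1 was 0.22 (adjusted p = 0.0006).

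NARS1 and YARS1, for asparagine and tyrosine, were the cytosolic enzymes nearest to no change. NARS1 had 399.7, 412.2 and 467.5 CPM in DMSO and 422.1, 424.5 and 440.2 CPM in PBKi, and the 95% interval of its log2 fold change was -0.08 to 0.11. YARS1 had 346.1, 385 and 399.6 CPM in DMSO and 351, 376.7 and 390.2 CPM in PBKi, with the interval -0.12 to 0.08. For both genes the PBKi values lay within the range of DMSO.

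GARS1 and KARS1, the glycyl and lysyl enzymes, each serve the cytosol and the mitochondrion from a single gene, and neither was called. GARS1 had 445.6, 526.2 and 590.8 CPM in DMSO and 521.6, 607.1 and 618.8 CPM in PBKi, a log2 fold change of 0.16 (95% interval 0.02 to 0.29, adjusted p = 0.0757). It was called higher without DMSO replicate 4 (adjusted p = 0.0271), DMSO replicate 6 (0.0380), PBKi replicate 1 (0.0344) or PBKi replicate 5 (0.0435), and with the covariate for the sets of replicates (0.0324). KARS1 had 250.5, 266.8 and 301 CPM in DMSO and 246.3, 250.9 and 272.8 CPM in PBKi, a log2 fold change of -0.08 (95% interval -0.19 to 0.03, adjusted p = 0.265).

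Among the 17 mitochondrial enzymes, 6 were downregulated and 0 upregulated, with a median log2 fold change of -0.03. Downregulated genes were 35.3% of these enzymes, beside 21.5% of all genes tested and 26% of genes in their range of expression. Upregulated genes were 20.1% of all genes and 18.8% of those in that range. Called or not, 12 of the mitochondrial enzymes had negative and 5 had positive estimates. Those that fell included IARS2 and NARS2, which charge isoleucine and asparagine in the mitochondrion.

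IARS2 (chr1:220267474-220321383, plus strand) had 399.1, 429 and 486 CPM in DMSO and 318.9, 351.7 and 377.6 CPM in PBKi, with no overlap. Its log2 fold change was -0.30 (95% interval -0.41 to -0.19, adjusted p = 0.000427), and the exact permutation test gave p = 0.002165 (two-sided, n = 6 per group). No exon of another counted gene overlaps the exons of IARS2. Exons of CARS1, LARS1 and NARS2 each overlap those of a long noncoding RNA gene on the other strand. NARS2 (chr11:78146666-78286239, minus strand) had 51.6, 58.5 and 65 CPM in DMSO and 45.04, 48.95 and 52.46 CPM in PBKi. Its groups overlapped and its log2 fold change was -0.27 (95% interval -0.39 to -0.15, adjusted p = 0.00182). The NARS2 change was -0.36 in replicates 1 to 3 (adjusted p = 0.000407) and -0.16 in replicates 4 to 6 (adjusted p = 0.204).

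FARS2, CARS2 and HARS2, for phenylalanine, cysteine and histidine, were downregulated by less than these. FARS2 was the least expressed of the called genes, at 19.9 ± 1.47 CPM in DMSO and 17.1 ± 0.956 CPM in PBKi (SD, n = 6), without overlap, and its log2 fold change was -0.21 (adjusted p = 0.0167, and 0.0529 without PBKi replicate 6). CARS2 had a log2 fold change of -0.19 (adjusted p = 0.0133), and its partner on the other strand, ING1, fell too (-0.30, adjusted p = 0.00848). HARS2 overlaps the start of HARS1 on the other strand. It had a log2 fold change of -0.16 (adjusted p = 0.0205) and lost its call without DMSO replicate 2 or PBKi replicate 2, 3, 4 or 6, with adjusted p up to 0.0769.

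The remaining 11 mitochondrial enzymes were not called, and their log2 fold changes ran from -0.07 (YARS2) to 0.10 (VARS2). RARS2 and PARS2, for arginine and proline, lay nearest to no change. RARS2 had 11.8, 13.3 and 16.1 CPM in DMSO and 11.7, 14.1 and 15.6 CPM in PBKi, with a 95% interval of -0.19 to 0.18, the widest of the set. PARS2 had 14.5, 16.6 and 19.0 CPM in DMSO and 15.22, 16.77 and 17.99 CPM in PBKi, with an interval of -0.13 to 0.15. AARS2 and VARS2 had their highest DMSO value in DMSO replicate 5, and without it they were called higher (log2 fold changes 0.14 and 0.16, adjusted p = 0.0393 and 0.0255).

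Counting only genes whose groups did not overlap, 1 member was higher in PBKi (WARS1) and 5 were lower (CARS1, LARS1, IARS2 and FARS2 among them). In all genes tested, 10.5% were higher and 9.68% lower in this way. The calls of WARS1, CARS1, LARS1, IARS2, NARS2 and CARS2 held whichever of the 12 libraries was left out.

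**Figure D3:**
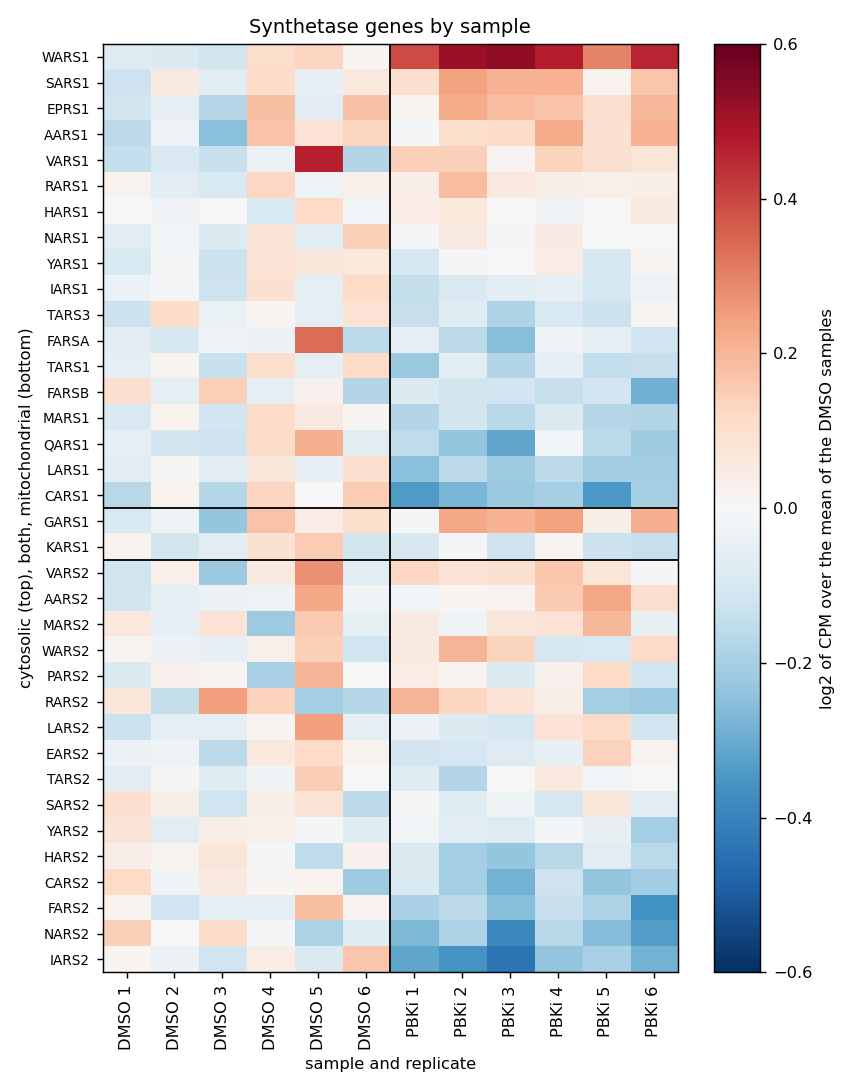
Log2 of the CPM of 36 synthetase genes over its mean in the DMSO libraries, for the 6 DMSO and 6 PBKi libraries, with cytosolic enzymes at the top, those of both compartments below them and mitochondrial enzymes at the bottom, each ordered by fold change. WARS1 was above its DMSO mean in every PBKi library, and IARS2 was below its own, while the single high value of VARS1 in DMSO 5 was 395.8 CPM.

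Cytosolic and mitochondrial enzymes were called at similar rates, 7 of 19 (36.8%) and 6 of 17 (35.3%), beside 41.7% of all genes tested. Genes within their ranges of expression were called at 45.3% and 44.8%. Of the cytosolic genes 2 were upregulated (10.5%) and of the mitochondrial 0, beside 20.1% of all genes. The median log2 fold changes of the cytosolic and mitochondrial enzymes were -0.08 and -0.03. Whether the groups of enzymes differ from each other was not tested.

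Levels between genes were compared as CPM per kb of the annotated canonical transcript. In DMSO the highest were GARS1 (215 CPM per kb) and TARS1 (196 CPM per kb) and the lowest TARS3 (4.07 CPM per kb), a second cytosolic threonyl enzyme. Among mitochondrial enzymes IARS2 (122.6 CPM per kb) was highest and RARS2 (6.06 CPM per kb) lowest.

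The summed level of the 19 cytosolic enzymes was 1986 ± 112 CPM per kb in DMSO and 1983 ± 55.7 CPM per kb in PBKi (SD, n = 6). That of the 17 mitochondrial enzymes was 423.7 ± 7.06 in DMSO (413.6 to 429.3) and 377.9 ± 14.6 CPM per kb in PBKi (360.1 to 396.2), a ratio of 0.892 with no overlap. IARS2 made up 27.2% to 32.1% of the mitochondrial sum in DMSO. Without IARS2 the sums were 291.4 to 309.4 in DMSO and 268.6 to 289.3 CPM per kb in PBKi, and over the 11 enzymes that were not called, a set the calls themselves chose, they were 153.7 to 175 and 153.6 to 165.6, which overlapped. The ratio of the cytosolic to the mitochondrial sum ran from 4.38 to 4.93 for DMSO and from 4.87 to 5.51 for PBKi, so the highest DMSO value was above the lowest PBKi value.

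**Figure D4:**
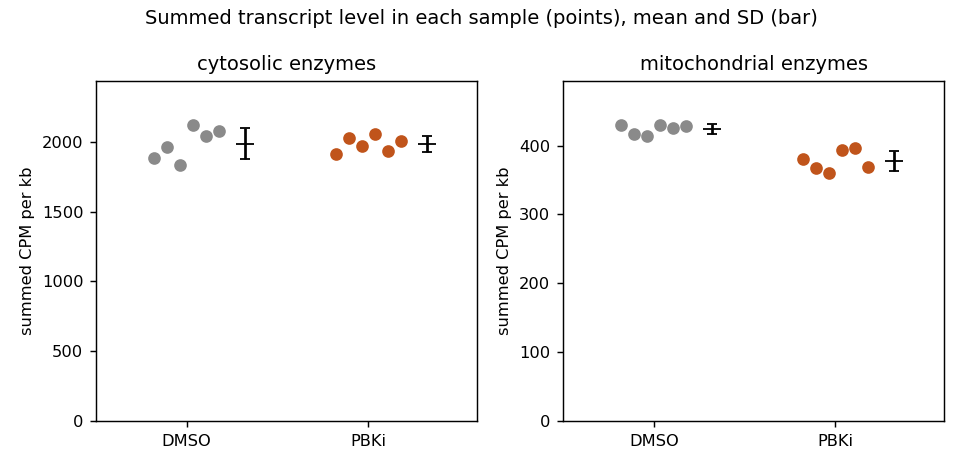
Summed CPM per kb of the 19 cytosolic (left) and 17 mitochondrial (right) enzymes in each library (points) with the mean and SD (bars), on axes that start at 0. The mitochondrial sums lay between 413.6 and 429.3 in DMSO and between 360.1 and 396.2 in PBKi, and the cytosolic sums overlapped.

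The enzymes were also set side by side by amino acid, in 19 pairs of a cytosolic and a mitochondrial enzyme (EPRS1, FARS2 and TARS2 each entered more than 1 pair). Both partners were downregulated in 2 pairs, cysteine among them, neither was called in 8 pairs, only the cytosolic one in 4 and only the mitochondrial one in 5. No pair had calls in opposite directions. In 3 pairs the ratio of the cytosolic to the mitochondrial transcript was higher in every PBKi library than in every DMSO library. It was lower in this way in 0 pairs. Of all single genes tested, 10.5% were higher and 9.68% lower without overlap, and ratios of other gene pairs were not examined. For tryptophan the mean log2 ratio WARS1/WARS2 rose by 0.39, with WARS1 up and WARS2 at a log2 fold change of 0.06. For asparagine NARS1/NARS2 rose by 0.28, where the highest DMSO and the lowest PBKi log2 ratio were both 3.06 after rounding, and for isoleucine IARS1/IARS2 by 0.22, and in both the cytosolic partner was not called and the mitochondrial one fell. Cytosolic transcripts were the more abundant per kb in 18 of the 19 pairs in DMSO, the exception being TARS3, and the excess reached 22.7 times for alanine.

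**Figure D5:**
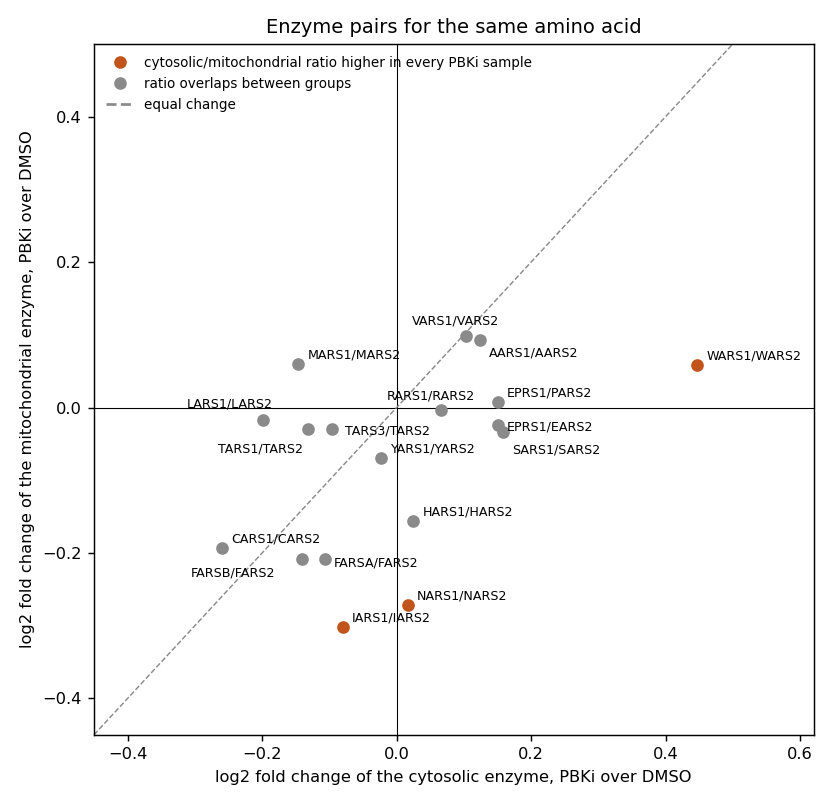
Log2 fold change of the mitochondrial enzyme against that of the cytosolic enzyme for the same amino acid (18 pairs), with a dashed line for equal change. The pairs for tryptophan, asparagine and isoleucine, whose ratio was higher in every PBKi library, lay below the line.

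The multi-synthetase complex holds 8 of the members (among them EPRS1, IARS1, KARS1, LARS1, MARS1, QARS1 and RARS1). Of these 4 were downregulated (LARS1, MARS1 and QARS1 among them), 0 upregulated and 4 not called, with a median log2 fold change of -0.11 (all genes tested, 21.5% downregulated and 20.1% upregulated, and 26.6% and 18.7% in the range of expression of the members). Of the 13 cytosolic or shared enzymes outside the complex, 2 were upregulated and 1 (CARS1) downregulated, with a median of 0.02. Only the call of LARS1 among the complex members was kept with each library left out. The scaffold proteins of the complex did not move together. AIMP2 rose (log2 fold change 0.26, adjusted p = 0.00386), AIMP1 fell (-0.14, adjusted p = 0.0443) and EEF1E1 was not called (0.07, adjusted p = 0.620).

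Of the 13 cytosolic or shared synthetases on a hand-written list of ATF4 targets, 2 were upregulated (SARS1 and WARS1) and 3 downregulated (CARS1, LARS1 and MARS1), with a median log2 fold change of 0.02. These were 15.4% and 23.1% of the list. Of the 8 not on that list, 0 were upregulated and 2 downregulated (25%), with a median of -0.10. Among all genes tested 20.1% were upregulated and 21.5% downregulated, and 18.7% and 26.6% in the range of expression of the members. Whether these groups of genes differ was not tested. A match to the core of the ATF4 response element (TGATGNAA, either strand) lay in the 250 bases before the start of 4 of the 30 genes with a promoter entry (13.3%), and of 3.89% of all genes. The 4 stretches are shown because they mark the genes in which the element could be read, and capitals mark the matched bases.
AARS1, chr16:70323578-70323607, minus strand: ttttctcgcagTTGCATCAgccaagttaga
GARS1, chr7:30634450-30634479, plus strand: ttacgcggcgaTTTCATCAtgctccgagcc
IARS1, chr9:95055980-95056009, minus strand: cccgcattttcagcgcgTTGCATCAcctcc
YARS2, chr12:32909010-32909039, minus strand: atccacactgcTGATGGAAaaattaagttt
The first 3 lie in UTR exons of annotated transcripts and the last outside its gene. None of these 4 genes was called, with log2 fold changes of 0.12, 0.16, -0.08 and -0.07.

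Within the DMSO group, replicates 1 and 3 were above the group mean in 0 of the 13 ATF4-target synthetases. Replicate 2 was above it in 5 and replicate 5 in 7. The second principal component of all genes also separated replicates 1 to 3 from replicates 4 to 6. How far the values of this list follow that separation was not tested. DMSO replicate 3 had the lowest value of the 6 libraries in 11 of the 13 genes, and replicates 4 and 6 were each above the group mean in 12 of 13. In PBKi, replicate 1 was lowest in 9 of 13, and replicate 4 was above the mean in all 13 and replicate 5 in 0. Among the 8 cytosolic or shared enzymes not on the list, DMSO replicate 3 was lowest in 2. There DMSO replicates 4 and 6 were above the mean in 5 and 3, PBKi replicate 1 was lowest in 0 and PBKi replicate 4 above the mean in 6. Among the 17 mitochondrial enzymes DMSO replicate 3 was lowest in 4 and DMSO replicates 4 and 6 were above the mean in 10 and 6. In these PBKi replicate 1 was lowest in 2 and PBKi replicate 4 above the mean in 13. Shares over all genes were not computed. PBKi replicate 4 was above the mean in 32 of all 38 members, and the difference between the lists was not tested. The spread was larger in DMSO, where the SD exceeded that of PBKi in 32 of 38 members (84.2%, beside 67.4% of all genes). The coefficient of variation ran from 4.06% to 19.0% in DMSO and from 1.94% to 11.9% in PBKi.

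The rest of the charging pathway was read from lists written by hand, whose counts stand beside 21.5% downregulated and 20.1% upregulated among all genes tested. Of 4 genes for the mitochondrial glutaminyl-tRNA route and initiator, MTFMT, which formylates the mitochondrial initiator methionyl-tRNA, was downregulated (log2 fold change -0.25, adjusted p = 0.00131) and the amidotransferase subunits QRSL1, GATB and GATC were not called (-0.06, -0.07 and -0.08). Of 4 tested genes of editing and selenocysteine, PSTK, the kinase of seryl-tRNA for selenocysteine, fell (-0.46, adjusted p = 0.00131) and DTD1, DTD2 and SEPSECS were not called. Of 5 genes that export or deliver charged tRNA, 4 were downregulated and 0 upregulated (all genes, 21.5% and 20.1%). TUFM (-0.27) and TSFM (-0.16), the mitochondrial elongation factors, XPOT (-0.24), the tRNA exporter, and EEF1A1 (-0.20) fell, and EEF1A2 was at 0.18 (adjusted p = 0.141).

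ATF4 mRNA itself fell, from 575 to 512.3 CPM (log2 fold change -0.17, adjusted p = 0.0071). Of 15 genes of amino acid sensing and the ATF4 response, 5 were upregulated (33.3%, all genes 20.1%) and 2 downregulated (13.3%, all genes 21.5%). The 4 largest rises were in ATF3 (1.67), PPP1R15A (1.20), DDIT3 (1.02) and SESN2 (0.67), which encode stress transcription factors, a phosphatase subunit acting on eIF2 and a leucine sensor, and DDIT4 fell (-0.84). The changes in ATF3, PPP1R15A, DDIT3, SESN2 and DDIT4 were larger than that of any synthetase. Those of ATF4 and CHAC1 (0.22), also called, were smaller than that of WARS1. The other 8 genes of the list were not called, TRIB3 and CEBPB among them (adjusted p = 0.0546 and 0.141).

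Amino acid supply genes moved in both directions, beside 20.1% upregulated and 21.5% downregulated among all genes. Of 8 genes of amino acid synthesis, 1 was upregulated (SHMT2, 0.21) and 6 were downregulated, led by MTHFD2 (-0.43), PSPH (-0.35), PSAT1 (-0.24) and ASNS (-0.20), which act in mitochondrial folate metabolism, serine and asparagine synthesis. Of 8 amino acid transporters, SLC7A11, which imports cystine, rose from 414 to 1071 CPM (1.37, adjusted p = 8.97e-08) and its partner chain SLC3A2 by 0.74, while SLC1A5, a glutamine carrier, fell (-0.28, adjusted p = 0.00615) and the other 5 were not called. Beside them, the synthetases for cysteine in both compartments fell (CARS1 -0.26 and CARS2 -0.19), the cytosolic synthetase for serine rose (SARS1 0.16) and its mitochondrial counterpart was not called (SARS2 -0.03).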

How the data were processed

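The authors aligned RNAseq reads to GRCh37 with TopHat2 2.0.4 and the deposited values are raw HTSeq 0.5.3p9 counts for each gene, in 47 lane files. The strand setting is not given in the sources used here. Counts were summed over lanes, whose differences were within sampling noise (chi-square over its degrees of freedom 0.993 to 1.02, but 4.11 to 25.2 between libraries of a group), giving 6 samples per group. Rows that name no gene were left out (5.74% to 9.30% of reads on no feature and 3.87% to 4.35% ambiguous). Genes reaching 10 counts in 6 or more samples were tested by edgeR 4.0.16 (R 4.3.3) with TMM and the quasi-likelihood test with no covariate, and p-values were adjusted after Benjamini-Hochberg at 0.05. Standard errors came from the F statistic and 95% intervals are 1.96 standard errors. Levels are CPM after TMM. For the exact permutation tests these were put on the log2 scale with a prior count of 2. Symbols came from supplied gene tables (47098 of 54127 IDs), and coordinates and transcript lengths from GENCODE lifted to GRCh37, newer than the counted annotation. The procedure was tested on simulated data. The members and lists were chosen with earlier results of these data known.

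Values by sample were given for the largest called rises and falls of each compartment (up to 4 cytosolic and 3 mitochondrial each way), the shared enzymes and the members nearest to no change, and for other lists up to 4 called genes each way. Further members are named with their fold change. The counts and sums cover all 38 members, of which 2 are not reported individually here and are left out of the plots of single genes. Alternatives were DESeq2 1.42.0, limma-voom (limma 3.58.1), RLE factors, no filter, at least 50 counts, lanes 6 to 8 only, a replicate block, a covariate for replicates 1 to 3 against 4 to 6, leaving out each library and leaving out PBKi replicates 3 and 6. Fits of replicates 1 to 3 and of 4 to 6 alone were added after the data were seen. Sequence was searched with Python 3.11.15.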

Additional observations from a re-analysis of the deposited data

Results flagged for a closer look

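In 8 of the 76 sets of 6 values (38 genes in each group, 10.53%), the highest or lowest library was separated from the others by a gap above the 95% critical value of Dixon's test, one that chance gives in about 1 of 20 sets. In 5 of them the library was DMSO replicate 5, high in VARS1 (395.8 CPM, nearest other 278.8), FARSA (229.4 CPM, nearest 178.8), LARS2 (102.2 CPM, nearest 87.0), TARS2 (84.9 CPM, nearest 77.2) and AARS2 (41.3 CPM, nearest 34.5). PBKi replicate 6 was low in FARSB (168.8 CPM, nearest 187) and YARS2 (48.8 CPM, nearest 53.3). PBKi replicate 2 was high in RARS1 (180.9 CPM, nearest 165.5). Of these 8 genes, AARS2 and VARS1 changed their call when the flagged library, DMSO replicate 5, was left out. FARSB changed its call without DMSO replicate 6, but not without its flagged library, PBKi replicate 6 (edgeR adjusted p = 0.18).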

How the results depend on the processing

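Of the 13 called genes, 6 (WARS1, CARS1, LARS1, IARS2 and NARS2 among them) kept their call under all 21 other settings (12 of them leaving out a library), and 0 changed sign. Of the 25 other genes, 8 were called in at least 1. The main counts were 2 synthetase genes higher and 11 lower (2 and 5 cytosolic, 0 and 6 mitochondrial). Without a filter on low counts they were 1 higher and 6 lower (1 and 2 cytosolic), and with at least 50 counts 4 were higher. Without PBKi replicates 3 and 6, 2004 of all genes were lower, with 1 synthetase gene higher and 5 lower (1 and 2 cytosolic, 3 mitochondrial lower). Calls lost there included CARS2 (log2 fold change -0.15, adjusted p = 0.114), FARS2 (-0.15, 0.129), HARS2 (-0.12, 0.166), MARS1 (-0.12, 0.129), QARS1 (-0.12, 0.197) and SARS1 (0.16, 0.0745). With the covariate for the sets of replicates 5 were higher (4 cytosolic). Replicates 1 to 3 alone gave an even split, 8 higher (6 cytosolic, 1 mitochondrial) and 8 lower (3 cytosolic, 5 mitochondrial). Replicates 4 to 6 alone gave 1303 of all genes higher and 1216 lower, and 1 synthetase gene higher and 4 lower (1 and 2 cytosolic, 2 mitochondrial lower). With each library left out in turn, all genes ran from 2531 to 3341 higher and 2586 to 3213 lower, synthetase genes from 1 to 5 and 6 to 12, cytosolic from 1 to 3 and 2 to 6, and mitochondrial from 0 to 2 and 4 to 6. The cause of these differences was not tested. Scaling choices moved the median of all genes by less than 0.1.

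Samples with the same replicate number are not said to share a batch, and their correlations of deviations from group means were 0.089 to 0.299, with 3 of the 6 best with their own number. The fit with the replicate block gave 5 synthetase genes higher (4 cytosolic), with AARS1, EPRS1 and GARS1 added, and 13 lower, with FARSB and TARS1 added.

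Some estimates of genes not called changed sign. RARS2 was 0.000 with DESeq2, 0.015 with at least 50 counts, 0.026 in lanes 6 to 8, 0.004 with the replicate block, 0.001 with the covariate, 0.041 without PBKi 3 and 6 and 0.055 in replicates 1 to 3. LARS2 was 0.005 with at least 50 counts, 0.041 without PBKi 3 and 6 and 0.014 in replicates 1 to 3, and YARS1 0.048 there. In replicates 4 to 6 the values were NARS1 -0.035, RARS1 -0.009, VARS1 -0.008, VARS2 -0.007 and WARS2 -0.043, where replicates 1 to 3 gave VARS1 0.234 (adjusted p = 0.00295) and VARS2 0.22 (adjusted p = 0.0157). With a library left out, EARS2 ran from -0.055 to 0.003, LARS2 from -0.041 to 0.039, PARS2 from -0.017 to 0.049, RARS2 from -0.033 to 0.059, TARS2 from -0.043 to 0.005 and YARS1 from -0.046 to 0.004. Standard errors of 0.05 to 0.10 limit what can be called at this depth and number of samples.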

Other observations

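By catalytic fold (assigned by hand), the 18 class I enzymes had 1 gene upregulated and 6 downregulated (median log2 fold change -0.02). The 19 class II enzymes had 1 and 5, with a median of -0.08 (EPRS1 carries both folds). Called genes were 38.9% and 31.6% of these classes, beside 41.7% of all genes tested. The canonical E-box (CACGTG) lay in the 250 bases before the start of 3 of the 30 synthetase genes with a promoter entry (EARS2, IARS1 and MARS2, 10%) and of 7.73% of all genes, and none of the 3 was called.

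In 18 of the 38 members, exons overlap those of another counted gene, in most cases on the other strand. Beside HARS1, which was not called, WDR55 rose (log2 fold change 0.22, adjusted p = 0.00129). Beside YARS1, also not called, S100PBP fell (-0.16, adjusted p = 0.0145), and beside EARS2, not called, UBFD1 fell (-0.24, adjusted p = 0.0066).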
